A study of Mus musculus with 15 samples.

Results

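Canonical Wnt signalling was followed here through 10 genes: the TCF/LEF transcription factor genes Lef1, Tcf7, Tcf7l1 and Tcf7l2, the β-catenin gene Ctnnb1 with the scaffold genes Axin1 and Axin2, and the feedback genes Sp5, Znrf3 and Rnf43. They were chosen by name, as the rows of the deposited count table whose Ensembl mouse identifiers map to these symbols, and make up 10 of the 52636 genes in the table. Of these, 9 had enough counts to be tested and Rnf43 did not. RNA was sequenced from mouse epiblast-like cells (EpiLCs), a culture made from embryonic stem cells that stands for the early post-implantation epiblast. The line, CRAFR26, carries a c-RAF kinase construct through which 4-hydroxytamoxifen (4OHT) turns on the kinase ERK.

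Every sample carried the construct, had passed through the RSC stage and was then kept for 48 h in N2B27 with bFGF (12 ng/ml), Activin A (20 ng/ml) and XAV939 (1 µM). All were also given the FGF receptor inhibitor PD17 (250 nM) for 2 h before any 4OHT. The 0h group had no 4OHT (n = 3), the 2h and 4h groups had 250 nM 4OHT for 2 h and 4 h (n = 4 each), and the rev group had 4 h of 4OHT followed by 2 h with a MEK inhibitor (n = 4). The libraries came from 2 targeted clones, clone 4 and clone 8, with 2 libraries per clone and group except at 0h, where clone 4 gave 1. No sample used here lacked XAV939 or received 4OHT without the construct, so an effect of 4OHT itself cannot be told apart from that of ERK. The rev samples were also taken later than the 4h samples, so the inhibitor and the added time cannot be told apart.

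In the canonical pathway a destruction complex built on AXIN, APC and GSK3 marks β-catenin for degradation, and a Wnt ligand stops this. β-catenin that escapes degradation enters the nucleus and binds TCF/LEF proteins at their target genes. XAV939 inhibits the tankyrases, enzymes that mark AXIN for degradation, so that AXIN accumulates and the pathway is held down. In pluripotent cells TCF7L1 is known mainly as a repressor of naive pluripotency genes, while TCF7 and LEF1 are known mainly as activators, and Axin2, Sp5, Znrf3 and Rnf43 are widely used as read-outs of pathway activity.

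RefSeq promoter windows (assembly GRCm38.p6, 250 bases before to 50 after a start site) were found for 8 of the 10 genes, in 15 windows. They were searched on both strands for the TCF/LEF letters CTTTGAT or CTTTGAA, present in 8.65% of all 32851 promoter windows, the ETS letters CCGGAAGT (3.89%) and the EGR letters GCGTGGGCG or GCGGGGGCG (3.47%). ETS and EGR factors are classical nuclear outputs of ERK. The EGR letters can overlap with the GC boxes bound by Sp and Klf factors. The windows below are the Sp5 promoter, the only one with the TCF/LEF letters, the first Tcf7l2 start site, which holds the EGR letters, and an inner Tcf7 start site, which holds the ETS letters. They are printed 5′ to 3′ in the direction of the gene, with the match in capitals.
Sp5, chr2:70474673-70474972, plus strand: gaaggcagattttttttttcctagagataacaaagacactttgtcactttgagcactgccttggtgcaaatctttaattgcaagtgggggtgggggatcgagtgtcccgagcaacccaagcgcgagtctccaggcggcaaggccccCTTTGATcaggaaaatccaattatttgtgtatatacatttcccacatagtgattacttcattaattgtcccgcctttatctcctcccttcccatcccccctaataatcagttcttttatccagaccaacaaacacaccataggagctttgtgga
Tcf7l2 start site 1, chr19:55741560-55741859, plus strand: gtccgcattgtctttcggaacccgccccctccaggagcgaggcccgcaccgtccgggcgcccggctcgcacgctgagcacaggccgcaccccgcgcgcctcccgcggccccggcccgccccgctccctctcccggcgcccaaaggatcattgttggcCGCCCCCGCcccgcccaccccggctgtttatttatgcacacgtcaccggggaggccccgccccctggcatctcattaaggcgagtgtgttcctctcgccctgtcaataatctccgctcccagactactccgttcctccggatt
Tcf7 start site 2, chr11:52282546-52282845, minus strand: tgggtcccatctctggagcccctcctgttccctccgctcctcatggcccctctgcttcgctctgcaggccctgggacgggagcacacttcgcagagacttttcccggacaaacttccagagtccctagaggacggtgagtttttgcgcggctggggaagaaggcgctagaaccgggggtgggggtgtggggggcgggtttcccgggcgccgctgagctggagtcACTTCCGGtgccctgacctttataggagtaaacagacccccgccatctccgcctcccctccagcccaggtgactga
The first Tcf7 start site also held the EGR letters. The match in Sp5 is CTTTGAT on the printed strand, and those in Tcf7l2 and Tcf7 lie on the other strand. These matches are descriptions of the sequence and were not tested for binding.

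Libraries at 4h were shallower than the others, with 1552022 to 6658950 counts against 8667880 to 13004556. Mitochondrial genes took 7.21% to 12.4% of the counts at 4h and 2.67% to 6.98% elsewhere. The summed level of 6 formative epiblast markers, which include Dnmt3b, Otx2 and Fgf5, was 1349 to 1550 CPM (counts-per-million, on libraries scaled by TMM, edgeR's scaling on the bulk of genes) at 0h and 717 to 861 at 4h, with all 6 at a mean of at least 1 CPM in each group. Most of that sum was Dnmt3b and Dnmt3a, while Otx2 had 12.3 ± 2.98 CPM at 0h (SD, n = 3) and 25.1 ± 9.58 at 4h (SD, n = 4). That of 7 naive pluripotency markers was 33.1 to 41.8 CPM at 0h and 77.0 to 275 at 4h. Among 3 neural markers the sum was 2.86 to 4.97 CPM at 0h and 37.9 to 50.5 at 4h, carried by Sox1 and Pax6, with Neurog2 at 0 in every 4h library. Among 5 primitive streak markers it was 2.79 to 3.46 CPM at 0h and 6.15 to 11.9 at 4h, with T, a classical Wnt target of the streak, at 0 to 0.377 CPM in the 4h libraries. The part of depth, mitochondrial share and these markers in the differences below was not tested, and in bulk RNA fewer cells of a type and less RNA per cell cannot be told apart.

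Compared per length of exon, Ctnnb1 was the most abundant of the 10 genes, at a mean of 39.4 ± 2.90 CPM per kb (SD, n = 15). Tcf7l1 (12.6 ± 3.67) and Tcf7 (12.3 ± 3.47) came next and did not differ beyond their spread. Axin1 had 8.31 ± 1.31, Lef1 4.57 ± 2.17, Znrf3 2.46 ± 0.188, Tcf7l2 1.84 ± 1.46 and Axin2 1.16 ± 0.312 CPM per kb (SD, n = 15 each). Ctnnb1 stood above all others in every library, and from Tcf7l1 down to Axin2 the ranges of neighbours in this order overlapped over the libraries. Sp5 (0.287 ± 0.263) and Rnf43 (0.0361 ± 0.0381) were near the limit of detection, with 96 and 24 counts over all 15 libraries.

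**Figure D1:**
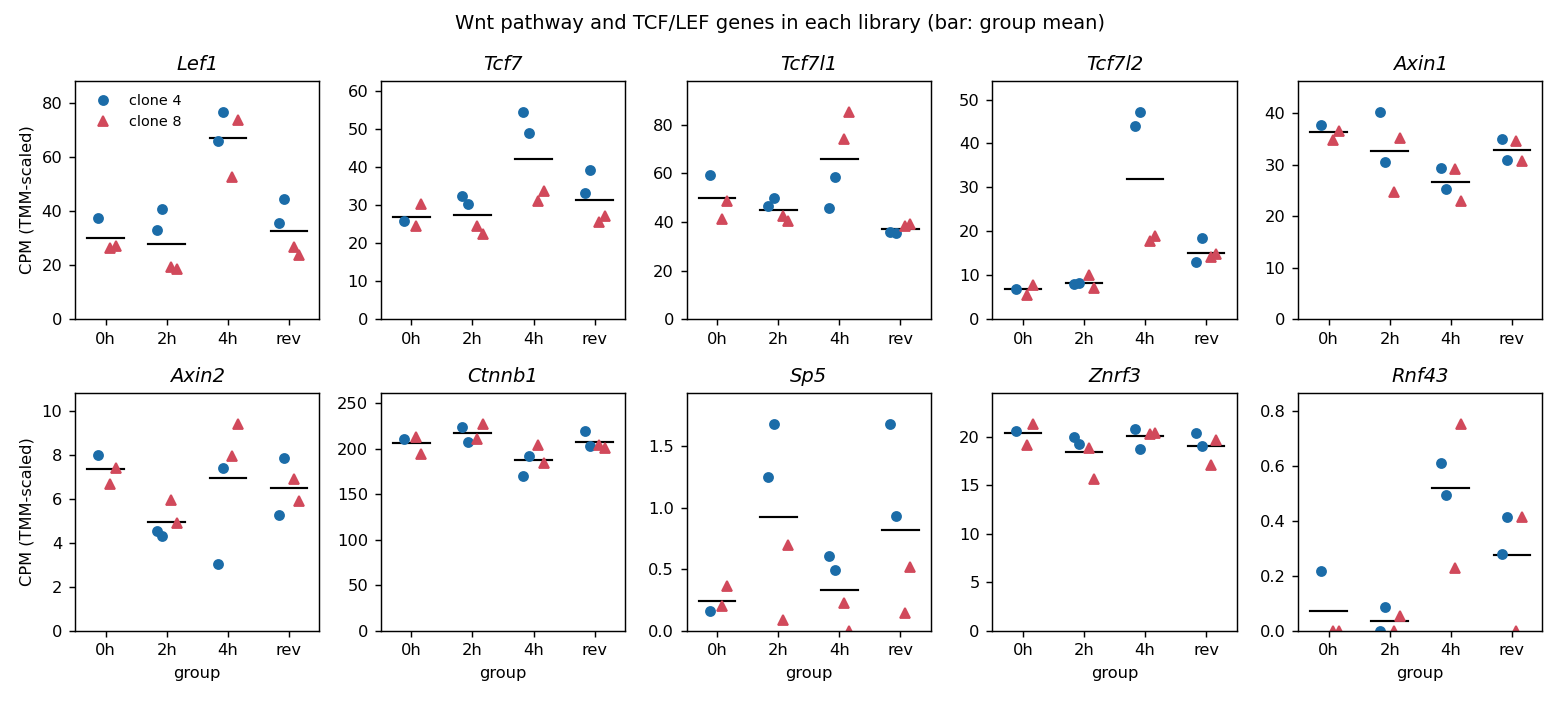
CPM on TMM-scaled libraries (vertical axes, each from 0, with their own scale) of the 10 genes in each library at 0h, 2h, 4h and rev; blue circles are clone 4, red triangles clone 8 and bars are group means. Lef1 and Tcf7l2 lie higher in every 4h library than in every 0h library, and Tcf7l1 and Tcf7l2 at 4h differ between the clones.

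All 4 TCF/LEF genes were called higher at 4h than at 0h on TMM-scaled libraries, by 4.32-fold for Tcf7l2, 2.12-fold for Lef1, 1.44-fold for Tcf7 and 1.33-fold for Tcf7l1. The directions of Tcf7 and Tcf7l1 turned when libraries were scaled by their total counts, and Tcf7l1 was not called with RLE scaling. None of the 4 genes was called at 2h. After MEK inhibition all 4 were lower than at 4h, a comparison that shares the 4h libraries, and Tcf7l2 alone was still called higher than at 0h. The clones differed in 2 of the 4 genes: from 0h to 4h Tcf7l1 rose only in clone 8, and Tcf7l2 rose in both but more in clone 4. On total counts the joint test of clone differences called 0 of the 9 tested genes.

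Lef1 (ENSMUSG00000027985, chr3:131110471-131224356, plus strand, GRCm38, 14 merged exon blocks) encodes the TCF/LEF protein best known as a Wnt-induced activator. It had 37.5 CPM at 0h in clone 4 and 26.2 and 27.1 CPM in clone 8. At 2h it had 32.9 and 40.7 CPM in clone 4 and 19.4 and 18.7 CPM in clone 8. The 2h and 0h libraries overlapped, and the change of -0.26 (log2, SE 0.152) was not called (adjusted p = 0.339). At 4h the level of Lef1 was 65.97 and 76.77 CPM in clone 4 and 52.6 and 73.9 CPM in clone 8, above every library of the other groups. The log2 difference from 0h was 1.09 (SE 0.155, adjusted p = 1.44e-05) and from 2h 1.35 (SE 0.143, adjusted p = 2.85e-07). With the MEK inhibitor it came to 35.8 and 44.7 CPM in clone 4 and 26.9 and 23.8 CPM in clone 8, all below the 4h libraries and overlapping those at 0h. This was -1.09 on the log2 scale against 4h (SE 0.142, adjusted p = 6.32e-06) and 0.00 against 0h (SE 0.165, adjusted p = 1). Exons of Lef1 share 1208 bases with the antisense gene Gm43352, which had 0 to 21 counts in a library, and the handling of strand is not given in the sources used here.

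Tcf7 (ENSMUSG00000000782, chr11:52252371-52283014, minus strand, 12 merged exon blocks) encodes TCF1. It had 25.7 CPM at 0h in clone 4 and 24.5 and 30.3 CPM in clone 8, and at 2h 32.5 and 30.2 CPM in clone 4 and 24.5 and 22.3 CPM in clone 8. At 4h it had 54.4 and 48.9 CPM in clone 4 and 31.0 and 33.6 CPM in clone 8. Each 4h library lay above each 0h library, with clone 8 only just above, and the log2 difference was 0.53 (SE 0.137, adjusted p = 0.00439), which turned to -0.14 on total counts. The rev libraries of Tcf7 had 33.2 and 39.2 CPM in clone 4 and 25.4 and 27.1 CPM in clone 8, which overlapped those at 4h, and the log2 difference from 4h was -0.41 (SE 0.124, adjusted p = 0.016). Without 0h clone4_1 the 4h vs 0h difference of Tcf7 was 0.31 (adjusted p = 0.0994), and rev vs 4h was no longer called without 4h clone4_1 or without rev clone4_1.

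Tcf7l1 (ENSMUSG00000055799, chr6:72626378-72789254, minus strand, 14 merged exon blocks) encodes TCF3, the most abundant TCF/LEF factor of mouse embryonic stem cells. It had 59.3 CPM at 0h in clone 4 and 41.3 and 48.6 CPM in clone 8, and at 2h 46.5 and 49.7 CPM in clone 4 and 42.5 and 40.5 CPM in clone 8. At 4h it had 45.8 and 58.5 CPM in clone 4 and 74.0 and 85.2 CPM in clone 8. Only clone 8 stood above all 0h libraries. Over both clones Tcf7l1 was higher at 4h by 0.41 (log2, SE 0.157, adjusted p = 0.0434) and had -0.33 on total counts. The TMM-scaled call was missing in 5 of the 7 fits without 1 library (0h clone8_1, 0h clone8_2, 4h clone4_2, 4h clone8_1 or 4h clone8_2, largest adjusted p 0.24). Tcf7l1 was also not called with RLE scaling (0.39, adjusted p = 0.0539), without a clone term or with only the compared groups. In rev it had 35.7 and 35.4 CPM in clone 4 and 38.2 and 39.0 CPM in clone 8, below every 4h library and also below every 0h library. The log2 difference in rev vs 4h was -0.83 (SE 0.146, adjusted p = 0.000219), and in rev vs 0h it was -0.42 (SE 0.154), which edgeR did not call (adjusted p = 0.0836). DESeq2 called it (-0.45, adjusted p = 0.0467), and without 0h clone4_1 edgeR gave -0.20 (adjusted p = 0.584).

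Tcf7l2 (ENSMUSG00000024985, chr19:55741820-55933654, plus strand, 23 merged exon blocks) encodes TCF4, the main TCF of the gut. It had 6.86 CPM at 0h in clone 4 and 5.55 and 7.87 CPM in clone 8, and at 2h 8.06 and 8.14 CPM in clone 4 and 10.1 and 7.02 CPM in clone 8. At 4h it had 44.0 and 47.2 CPM in clone 4 and 17.8 and 18.9 CPM in clone 8. All 4 libraries of 4h lay above those of 0h and 2h, and those of clone 4 lay above those of clone 8. The log2 difference of Tcf7l2 from 0h was 2.11 (SE 0.274, adjusted p = 1.35e-05). In rev it had 13.1 and 18.5 CPM in clone 4 and 14.1 and 14.8 CPM in clone 8, above the 0h libraries and overlapping the 4h libraries of clone 8. The log2 difference was -1.01 against 4h (SE 0.236, adjusted p = 0.00355) and 1.11 against 0h (SE 0.259, adjusted p = 0.0106). All rev libraries were above all 0h libraries, but the call against 0h was lost without 0h clone4_1 (adjusted p = 0.1) and without 0h clone8_1.

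Of the 9 tested genes, 0 were called in 2h vs 0h by edgeR, where 6.45% of all 13451 tested genes passed (3.98% higher and 2.46% lower). At an unadjusted p under 0.05 there were 2, Axin2 and Sp5, and DESeq2 called 1, Axin2. In 4h vs 0h 5 of 9 were called, 4 higher and 1 lower, against 39.4% of all tested genes (20.5% higher and 18.9% lower). In 4h vs 2h 5 of 9 were called, the 4 TCF/LEF genes higher and Ctnnb1 lower, against 38.9% of all tested genes (19.7% higher and 19.2% lower). In rev vs 4h 4 of 9 were called, all lower, against 30.8% in either direction and 15.6% lower. Against the 0h group 1 of 9 was called in rev, beside 11.2% of all tested genes (6.49% higher and 4.66% lower). The median log2 difference of the 4 TCF/LEF genes was 0.81 in 4h vs 0h and -0.92 in rev vs 4h, beside 0.03 and 0.02 over all tested genes. All 4h libraries lay above all 0h libraries for 3 of the 9 genes (Lef1, Tcf7 and Tcf7l2) and below for Axin1, beside 18.2% and 18.1% of all tested genes and 36.3% in either direction.

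Scaling by total counts instead moved the median of all tested genes by -0.725 in 4h vs 0h, and the share of called genes that were higher went from 52.0% to 7.11%. On that scale Tcf7l2 was higher at 4h by 1.44 (log2, adjusted p = 9.37e-05), Lef1 by 0.37 without a call (adjusted p = 0.277), and Tcf7 and Tcf7l1 had -0.14 and -0.33. In 4h vs 2h, where the median gene moved by -0.571, Lef1 (0.83, adjusted p = 0.00772) and Tcf7l2 (1.32, adjusted p = 0.000115) kept their calls. Tcf7 and Tcf7l1 had 0.09 and 0.02 without one, and Ctnnb1 and Axin1 were called lower. Sp5 was called lower too, but it passed the filter on low counts only through 2h and rev libraries of clone 4, so this is a description. In 4h vs 0h Ctnnb1, Axin2 and Znrf3 were called lower at 4h on that scale, as Axin1 was on both. Relative to the median gene the differences were 2.16 for Tcf7l2, 1.09 for Lef1, 0.59 for Tcf7 and 0.39 for Tcf7l1. In rev vs 4h, where total counts moved the median gene by 0.446, Lef1 kept its call (-0.69, adjusted p = 0.0428), and Tcf7, Tcf7l1 and Tcf7l2 had -0.03, -0.41 and -0.63 without one. Axin1 was called higher there (0.69, adjusted p = 0.0491).

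**Figure D2:**
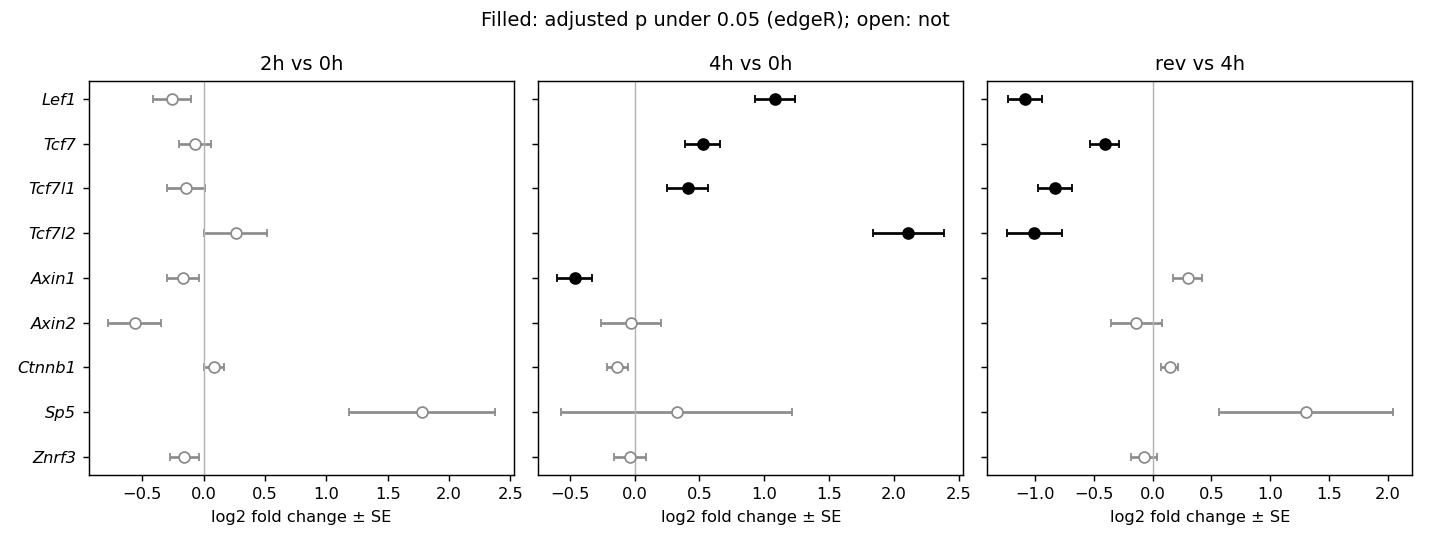
Log2 fold change with its standard error (horizontal axes, edgeR) of the 9 tested genes in the 3 comparisons 2h vs 0h (left), 4h vs 0h (middle) and rev vs 4h (right); filled points passed an adjusted p of 0.05. No gene is filled at 2h, and the 4 TCF/LEF genes lie right of 0 in 4h vs 0h and left of it in rev vs 4h on TMM-scaled libraries, with Tcf7 and Tcf7l1 turning to -0.14 and -0.33 in 4h vs 0h on total counts.

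The course of the genes differed between the clones for Tcf7l1 and Tcf7l2. In a joint test of all clone by group terms these 2 of 9 were called (adjusted p = 0.023 and 0.0285), against 3.18% of all tested genes. From 0h to 4h Tcf7l1 changed by -0.18 in clone 4 and 0.82 in clone 8 on the log2 scale, a difference of 1.00 (SE 0.213, adjusted p = 0.00753), where 3.87% of all tested genes were called. Over the same interval Tcf7l2 changed by 2.73 in clone 4 and 1.45 in clone 8, a difference of -1.28 (SE 0.345, adjusted p = 0.0418). Clone 4 has 1 library at 0h, but from 2h to 4h, with 2 libraries in each arm, the differences had the same signs (3.14% of all tested genes called). They were 0.82 for Tcf7l1 (0.12 in clone 4, 0.94 in clone 8, adjusted p = 0.0226) and -1.40 for Tcf7l2 (2.49 in clone 4, 1.10 in clone 8, adjusted p = 0.0129). With the MEK inhibitor Tcf7l2 had -1.53 in clone 4 and -0.34 in clone 8 against 4h, a difference of 1.196 (SE 0.302, adjusted p = 0.0371), where 2.8% of all tested genes were called, and the rev levels of the clones overlapped. In rev vs 0h none of the 9 showed a called clone difference in edgeR (2 at an unadjusted p under 0.05, Tcf7l1 and Tcf7), against 0.0818% of all tested genes. On total counts, and also without 4h clone4_1 or without 4h clone8_2, the joint edgeR test called 0 of the 9 (1, 3 and 3 at an unadjusted p under 0.05). It called Tcf7l2 but not Tcf7l1 without 0h clone8_1, and Tcf7l1 but not Tcf7l2 without 4h clone4_2, 4h clone8_1, rev clone8_1 or rev clone8_2. These tests rest on few libraries: the Tcf7l2 differences in 4h vs 0h and in rev vs 4h kept their call in 7 of 14 fits each that left out 1 library (both lost it without any 1 of the 4h libraries, rev clone8_1 or rev clone8_2, the first also without 0h clone8_2 and the second without rev clone4_1). The Tcf7l1 differences kept theirs in 13 of 14 (lost without 0h clone8_1) and, in 4h vs 2h, 10 of 14.

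Lef1 and Tcf7 did not show a called clone difference in their course (joint adjusted p = 0.302 for each), but both were lower in clone 8 on average over the groups. This did not hold in each group. At 0h Tcf7 had 25.7 CPM in clone 4 and 24.5 and 30.3 CPM in clone 8, and at 4h the Lef1 libraries of the clones overlapped. The log2 difference of clone 8 from clone 4 was -0.58 for Lef1 (SE 0.104, adjusted p = 0.00039), -0.41 for Tcf7 (SE 0.092, adjusted p = 0.00316) and -1.42 for Sp5 (SE 0.404, adjusted p = 0.0142). Sp5 passed the filter on low counts only through libraries of clone 4, where it is high, and left the test without 2h clone4_1, 2h clone4_2 or rev clone4_1, so its clone difference is a description. With Sp5, 3 of 9 genes were called between clones, all lower in clone 8, against 18.5% of all tested genes in either direction and 8.11% lower.

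The make-up of the TCF/LEF transcripts within a library does not depend on how libraries are scaled, and is given as a description, chosen after the values were seen. Per length of exon, Tcf7l2 made up 2.61% to 4.90% of the summed level of the 4 genes in the 0h and 2h libraries. At 4h its share was 11.2% and 11.3% in clone 4 and 4.77% and 5.24% in clone 8, and in rev 5.46% to 6.86% over both clones. The share of Tcf7l1, the repressor, was 44.4% to 50.5% at 0h and 41.1% to 47.5% at 2h. At 4h it was 26.0% and 31.3% in clone 4, lower than in every 0h and 2h library, and 48.2% and 48.8% in clone 8. In rev it was 29.0% and 33.3% in clone 4 and 40.3% and 40.4% in clone 8. The share of Tcf7 at 4h was 46.1% and 39.1% in clone 4 and 30.5% and 28.4% in clone 8, the latter below every other library. That of Lef1 was 15.5% to 18.7% at 4h over both clones and 11.1% to 14.2% at 0h.

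**Figure D3:**
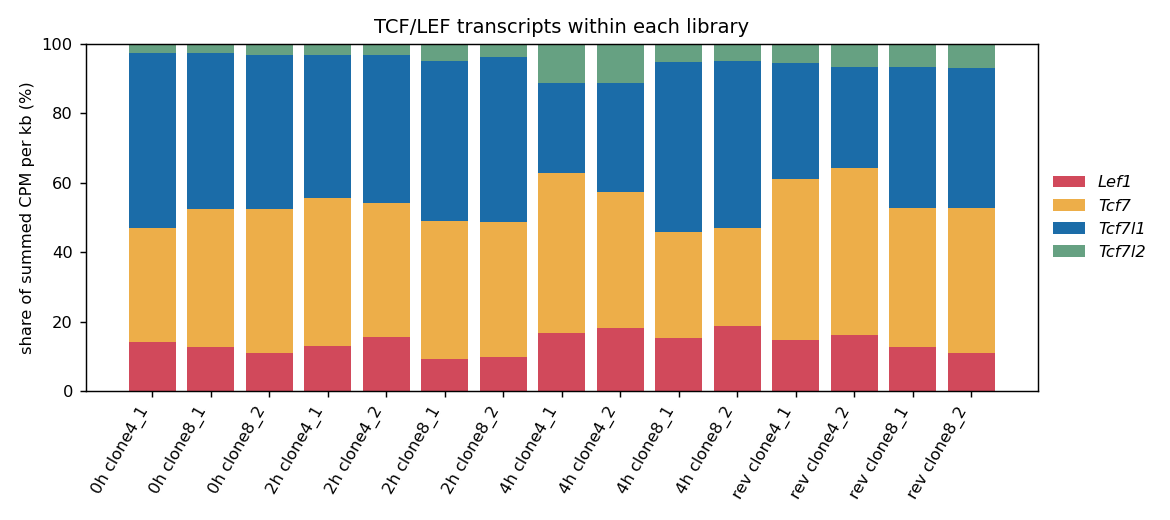
Share of Lef1, Tcf7, Tcf7l1 and Tcf7l2 in their summed CPM per kb of exon (vertical axis, percent) in each of the 15 libraries. The green Tcf7l2 segment is thickest in the 4h libraries of clone 4 (11.2% and 11.3%), where the blue Tcf7l1 segment is 26.0% and 31.3%, against 48.2% and 48.8% in clone 8.

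Of the destruction complex genes, Axin1 (ENSMUSG00000024182, chr17:26138688-26195811, plus strand, 11 merged exon blocks), the constitutive scaffold, was lower at 4h. It had 37.6 CPM at 0h in clone 4 and 34.8 and 36.5 CPM in clone 8. At 4h it had 29.3 and 25.2 CPM in clone 4 and 29.1 and 23.0 CPM in clone 8, all below the 0h libraries. The log2 difference was -0.46 (SE 0.134, adjusted p = 0.00925), and Axin1 kept its call in all 7 fits without 1 library. At 2h it had 40.2 and 30.4 CPM in clone 4 and 24.8 and 35.1 CPM in clone 8, a spread that overlapped each of the other groups. In rev it had 34.9 and 31.0 CPM in clone 4 and 34.5 and 30.7 CPM in clone 8, all above the 4h libraries, as for 11.9% of all tested genes. The log2 difference of 0.30 was not called (adjusted p = 0.0737). It was called on total counts (0.69, adjusted p = 0.0491), with no filter and without rev clone4_2.

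Axin2 (ENSMUSG00000000142, chr11:108920349-108950783, plus strand, 14 merged exon blocks), the Wnt-induced scaffold and the most used read-out of the pathway, was not called in any comparison of groups in the main edgeR fit. Other settings called it. On total counts Axin2 was lower at 4h than at 0h (-0.82, adjusted p = 0.0352). In 4h vs 2h it was called higher by DESeq2 (0.56, adjusted p = 0.0427) and by edgeR without 4h clone4_1. The same held with edgeR's earlier deviances and without the 20 most abundant and mitochondrial genes. Without those genes edgeR also called Axin2 lower in 2h vs 0h. It had 7.99 CPM at 0h in clone 4 and 6.68 and 7.39 CPM in clone 8. At 2h it had 4.54 and 4.33 CPM in clone 4 and 5.93 and 4.93 CPM in clone 8, all below the 0h libraries, as for 8.99% of all tested genes. The log2 difference was -0.56 (SE 0.216, adjusted p = 0.128), and DESeq2 gave an adjusted p under 0.05. At 4h Axin2 had 3.05 and 7.41 CPM in clone 4 and 7.97 and 9.42 CPM in clone 8, where the lowest value rests on 5 counts. Its difference from 0h was -0.03 (SE 0.23, adjusted p = 0.941), and its rev libraries, at 5.26 to 7.85 CPM, overlapped all other groups.

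Ctnnb1 (ENSMUSG00000006932, chr9:120929216-120960507, plus strand, 18 merged exon blocks) encodes β-catenin, which the pathway controls mainly as a protein. It had 194.7 to 212.6 CPM at 0h, 207.8 to 227.7 at 2h, 169.8 to 204.2 at 4h and 201.5 to 219.4 in rev. Every 4h library was below every 2h library, as for 13.3% of all tested genes, and the log2 difference of -0.21 (SE 0.0755) was called (adjusted p = 0.0284). That call was lost in 3 of 8 fits without 1 library (2h clone8_2, 4h clone4_1 or 4h clone8_2, largest adjusted p 0.0944). In 4h vs 0h Ctnnb1 had -0.14 (SE 0.0816, adjusted p = 0.2). Its exons overlap those of Ulk4 on the other strand, which had 2 to 40 counts in a library.

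Among the feedback genes, Sp5 (ENSMUSG00000075304, chr2:70474923-70477729, plus strand, 2 merged exon blocks), a repressor that β-catenin induces directly in many tissues, had 3 counts in each 0h library. At 2h it had 11 and 19 counts in clone 4 and 1 and 13 counts in clone 8. The 4h libraries held 1, 2, 1 and 0 counts, and the rev libraries 24 and 9 in clone 4 and 1 and 5 in clone 8. Summed over libraries and scaled to their size, the 2h level of Sp5 was 4.06 times that at 0h (exact Poisson interval at 95%, counting error only, 1.96 to 9.46), and the rev level 4.45 times (2.12 to 10.4). These ratios leave out the spread between libraries and take no account of clone. Sp5 passed the filter on low counts only through 2h and rev libraries of clone 4, so its differences between groups are descriptions. The test over libraries did not call the change at 2h (log2 1.78, SE 0.593, adjusted p = 0.0715) or in rev (1.63, SE 0.614, adjusted p = 0.0842). The 2h value fell to 0.66 (adjusted p = 0.715) and the rev value to 0.47 (adjusted p = 0.787) without 0h clone4_1. No fold is given for 4h vs 0h, since both groups lie at or under 3 counts a library.

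Znrf3 (ENSMUSG00000041961, chr11:5276324-5444847, minus strand, 10 merged exon blocks) and Rnf43 (ENSMUSG00000034177, chr11:87662722-87735539, plus strand, 11 merged exon blocks) encode membrane ubiquitin ligases that remove Frizzled receptors. Znrf3 had 19.2 to 21.3 CPM at 0h, 15.6 to 20.0 at 2h, 18.8 to 20.8 at 4h and 17.1 to 20.4 in rev. The groups overlapped in every comparison, and its largest log2 difference was -0.16 (2h vs 0h, SE 0.117, adjusted p = 0.467). Rnf43 had at most 4 counts in a library and was seen in 10 of the 15. At 4h it had 1, 2, 1 and 2 counts and at 2h 0, 1, 0 and 1, too few to pass the filter on low counts. With that filter removed, edgeR called Rnf43 in 4h vs 2h, on those 6 counts against 2.

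Across the 15 libraries the log2 CPM of Lef1 correlated with Tcf7 at r = 0.82, with Tcf7l2 at 0.74, with Tcf7l1 at 0.62 and with Ctnnb1 at -0.67. Tcf7l1 and Tcf7l2 had r = 0.22. Outside the 10 genes, the courses most like that of Lef1 belonged to Mapk3 (r = 0.96), which encodes the kinase ERK1, Rbms2 (0.96), Nos1 (0.95), Rgs19 (0.95) and Arid1a (0.94). These are descriptions over the same 15 libraries, whose depth and group they share.

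The wider pathway was covered by 120 further genes in 7 lists, of which 119 were matched and 89 tested. At 4h against 0h, 34 of them rose and 16 fell, with a median log2 difference of 0.24 beside 0.03 over all tested genes, of which 20.5% were called higher and 18.9% lower. In rev vs 4h, which shares the 4h libraries, 8 were higher and 26 lower, beside 15.1% and 15.6% of all tested genes. On total counts the splits were 15 higher and 32 lower in 4h vs 0h and 12 and 11 in rev vs 4h. Without 0h clone4_1, 28 were higher and 7 lower in 4h vs 0h, and without 4h clone4_1 30 and 15.

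The list that moved most was that of 8 naive pluripotency genes known to be repressed by TCF7L1. At 4h 7 of the 8 rose and none fell (median log2 difference 2.55), all but Klf4 (0.69, adjusted p = 0.145), and in rev vs 4h 7 fell. Nr5a2, a nuclear receptor of naive cells, rose by 4.19 (adjusted p = 1.1e-08), Esrrb by 3.57 (adjusted p = 0.000575) and Klf2, named after its value was seen, by 2.97 (adjusted p = 5.91e-10). Among 14 tested Wnt target genes of the streak and gut 8 rose and 2 fell (median 1.49). Over all tested genes 20.5% rose and 18.9% fell, and the 8 include Notum, Lgr5 and Dkk1, whose low counts are given below. At 2h 5 of the 14 were higher and 2 lower, beside 3.98% and 2.46%. In rev vs 4h 1 was higher and 3 lower, beside 15.1% and 15.6%. In rev vs 0h 8 were higher and 1 lower (median 1.355), beside 6.49% and 4.66%. Myc was higher by 3.96 at 4h (adjusted p = 0.000598) and already by 3.93 at 2h (adjusted p = 0.00345). The cyclin gene Ccnd1 was lower at 4h by -0.34 (adjusted p = 0.0214), a call lost without 0h clone4_1 or 4h clone4_1.

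Of 14 nuclear cofactors 6 rose and 3 fell at 4h (median 0.20), with the falls near the 18.9% of all tested genes called lower. The Groucho co-repressor gene Tle4 went from 56.9 ± 4.62 CPM at 0h (SD, n = 3) to 188.4 ± 31.9 at 4h (SD, n = 4), a log2 difference of 1.70 (adjusted p = 3.04e-10), and to 72.5 ± 4.38 in rev. The kinase gene Hipk2 rose by 1.64 (adjusted p = 3.1e-07), and Pygo2, whose protein joins the β-catenin complex, had -0.53 (adjusted p = 0.0139, lost without 0h clone4_1). The co-repressor gene Ctbp2 had -0.31 (adjusted p = 0.0239, lost without 0h clone8_1 or 4h clone4_1). Among 22 cytoplasmic transducers 5 rose and 5 fell (median 0.07), near the 20.5% and 18.9% of all tested genes called higher and lower. The destruction complex scaffold gene Apc had 0.53 (adjusted p = 0.000472) and the kinase gene Csnk1e 0.52 (adjusted p = 0.0252, lost without 0h clone4_1, 4h clone4_1 or 4h clone4_2), and both turned on total counts (-0.16 and -0.18). Apc2 had -1.06 (adjusted p = 0.00536) and the feedback inhibitor gene Nkd1 -0.90 (adjusted p = 0.0108), both lost without 0h clone4_1. The tankyrase gene Tnks, whose product XAV939 inhibits, was higher by 0.50 (adjusted p = 0.000388) on TMM-scaled libraries and had -0.19 on total counts, and Tnks2 had -0.08 (adjusted p = 0.465).

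At the cell surface 3 of 8 ligand and secretion genes rose and 2 fell at 4h (median 0.23), beside 20.5% and 18.9% of all tested genes. Wls, the Wnt carrier, fell by 1.56 (adjusted p = 0.007). It had 22, 35 and 20 counts at 0h (1.19 to 2.42 CPM) and 0, 2, 4 and 2 at 4h. In the 4h libraries 3 counts stand for 0.683 to 1.83 CPM, so these levels are near the limit of detection. The rises include Porcn, which attaches the lipid that Wnt proteins need. Porcn passed the filter on low counts only with the help of 4h libraries, so its levels are given as a description. It had 5 to 11 counts at 0h (0.432 to 0.735 CPM) and 7 to 39 at 4h (2.72 to 8.88 CPM). Of 19 receptor and R-spondin genes 5 rose and 4 fell (median 0.11), again near the shares of all tested genes. The co-receptor gene Lrp5 had -0.97 (adjusted p = 1.9e-05). The rises include the R-spondin receptor gene Lgr5, which passed the filter on low counts only through rev libraries and 4h libraries of clone 4. Its levels are given as a description, with 10, 7 and 3 counts at 0h. At 4h Lgr5 had 16 and 48 counts in clone 4 and 1 and 2 in clone 8. Of 9 inhibitors 3 were called higher and 1 lower (median 0.34), with Sfrp2, a secreted Wnt binder, at -0.97 (adjusted p = 0.00191). The count includes Notum, a Wnt deacylase, which passed the filter on low counts only through 4h libraries and is given as counts: 2 and 1 at 4h in clone 4 and 25 and 18 in clone 8. Lgr5 and Notum were low genes whose 4h libraries overlapped those at 0h. The ligand gene Wnt7b, also among the rises, passed the filter on low counts only through 4h and rev libraries of clone 4. Its counts at 4h were 5 and 18 in clone 4 and 2 and 1 in clone 8. The log2 changes of Wnt7b from 0h were 2.83 in clone 4 and -0.63 in clone 8. Its 4h vs 0h call, kept in 3 of 7 fits without 1 library, is a description. The inhibitor gene Dkk1 passed the filter on low counts only through 2h, 4h and rev libraries, so its values against 0h are descriptions. It had 6, 2 and 0 counts at 0h. At 2h Dkk1 had 20 and 31 counts in clone 4 and 39 and 40 in clone 8. At 4h it had 2 and 7 in clone 4 and 0 and 1 in clone 8. The log2 difference of Dkk1 from 0h was 3.78 at 2h and 1.99 at 4h. The 4h vs 0h call was kept in 3 of 7 fits without 1 library. It was lost without either 0h library of clone 8 or either 4h library of clone 4. Dkk1 was lower in 4h vs 2h by -1.80 (adjusted p = 0.00743). All fits without 1 library kept that call, although 2h libraries also brought Dkk1 through the filter. The R-spondin gene Rspo1 had -1.17 (adjusted p = 0.00412). The receptor gene Fzd8 had 0.75 (adjusted p = 0.0146), lost without 0h clone8_2 or 4h clone8_1, and -0.07 on total counts.

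**Figure D4:**
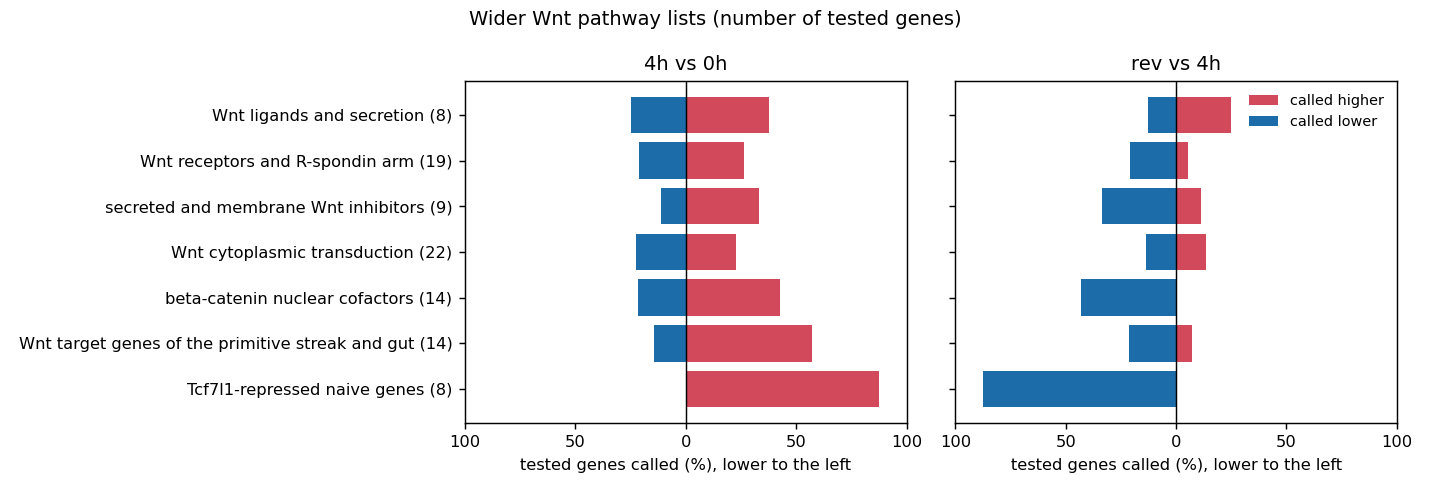
Percent of the tested genes of each list (vertical axis lists, horizontal axis percent) called higher or lower in 4h vs 0h and in rev vs 4h on TMM-scaled libraries. The naive genes have 7 of 8 called higher at 4h and 7 lower in rev vs 4h; over the 7 lists together the 4h vs 0h split of 34 higher and 16 lower turned to 15 and 32 on total counts.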

How the data were processed

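RNA of 15 samples was depleted of ribosomal RNA and sequenced, per the labels' protocols. The authors deposited a table of raw counts per gene. STAR 2.5.3a, bcl2fastq 2.19.1 and the build mm10 are named in the submitters' processing notes. The counting tool, annotation and use of strand are not given in the sources used here. The authors discarded 1 further 0h sample, per the labels.

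Genes were kept by filterByExpr (minimum count 10, total 15), which left 13451. Libraries were scaled by TMM and tested with edgeR 4.0.16 (quasi-likelihood F test, group and clone as terms, all 15 samples, R 4.3.3) at a Benjamini-Hochberg adjusted p of 0.05. Clone differences came from the clone by group interaction. Nothing states that replicates are separate cultures, so p-values measure the spread between these samples, which may be technical. edgeR's newer deviances were taken after both versions had been seen, to match earlier results of these data. The script was checked on simulated data. Levels per kb use exon lengths of GENCODE M21 (GRCm38). A count of 3 stands for 0.161 to 1.83 CPM in a library.

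The genes and lists were chosen with earlier results of these data known. Named genes of the wider lists were the 2 largest called rises and the 2 largest called falls in 4h vs 0h in each list, with a mean of at least 1 CPM, plus Tnks and Tnks2. The genes most like Lef1, the gene with the smallest joint p, were the 5 with the highest Pearson r. Replicate numbers were tested for pairing, with correlations of -0.194 to 0.261, and were not used to pair. Alternatives were RLE and total count scaling, DESeq2 1.42.0, no filter, no clone term, a replicate block, only the compared groups, removal of the 20 most abundant and mitochondrial genes, leaving out each library and edgeR's earlier deviances, the last added after seeing the data.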

Additional observations from a re-analysis of the deposited data

Results flagged for a closer look

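The change of Tcf7l1 and Tcf7l2 with 4OHT differed between the clones by a test of the difference itself (edgeR, adjusted over all tested genes). For Tcf7l1 clone 8 minus clone 4 was 1.00 on the log2 scale in 4h vs 0h (adjusted p = 0.00753) and 0.82 in 4h vs 2h (adjusted p = 0.0226). For Tcf7l2 it was -1.28 in 4h vs 0h (adjusted p = 0.0418), -1.40 in 4h vs 2h (adjusted p = 0.0129) and 1.196 in rev vs 4h (adjusted p = 0.0371). The 3 comparisons share libraries, and clone 4 has 1 library at 0h.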

How the results depend on the processing

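Under total count scaling the log2 differences of Tcf7 (-0.14) and Tcf7l1 (-0.33) changed sign in 4h vs 0h, as did that of Sp5, for which no fold is given, where that scaling moved the median gene by -0.725. The number of the 9 tested genes called in 2h vs 0h, 0 as reported, was 1 with DESeq2, 1 with no filter, 2 without the 20 most abundant and mitochondrial genes, 1 with the earlier deviances and 0 to 1 leaving out 1 library. In rev vs 4h it was 2 with total counts instead of 4. In rev vs 0h, 1 as reported, it was 0 with total counts, 2 with DESeq2, 3 with no filter, 2 with only the compared groups, 3 without the abundant genes, 3 with the earlier deviances and 0 to 2 leaving out 1 library; Tcf7l1, lower, was the gene added by DESeq2 and by the compared groups alone. In the clone by group interaction, 2 as reported, it was 0 with total counts and 0 to 2 leaving out 1 library; without 0h clone4_1 it could not be estimated. Apart from the sign changes and total counts, the cause was not tested.

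With a replicate block Tcf7l1 in 4h vs 0h had 0.41 (adjusted p = 0.0775), and 4 genes were called in place of 5. Same-numbered samples did not deviate together in every pair (correlations from -0.194 to 0.261). With 2 libraries per clone and group the deviations mirror each other, so this check cannot exclude a pairing. Of the other values under alternatives, 493 kept their side of the threshold, 55 lost a call and 35 gained one. The 493 include changes of direction where neither value was called, such as Axin2 in 4h vs 2h (0.54, and -0.07 on total counts). The 4h libraries, at 1552022 to 6658950 counts, limit Sp5, Rnf43 and Axin2 most.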

Other observations

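Several genes of the naive and Wnt target lists also differed between the clones at 4h. Nanog, a naive pluripotency factor, had 14.1 and 19.5 CPM in clone 4 and 88.3 and 79.5 CPM in clone 8 at 4h, and 14.0 to 14.4 CPM at 0h. Only the 4h libraries of clone 8 stood far above 0h, and the change from 0h was 0.26 in clone 4 and 2.56 in clone 8 on the log2 scale (edgeR, adjusted p of the difference = 1.99e-05). Esrrb had 15.3 and 7.41 CPM in clone 4 and 72.9 and 76.2 CPM in clone 8 (changes 2.15 and 4.33, adjusted p = 0.0439). Nr0b1 had 3.67 and 3.95 CPM in clone 4 and 25.0 and 19.2 CPM in clone 8 (changes 1.02 and 3.64, adjusted p = 0.00137). Klf2 changed by 2.72 and 3.16, with no called difference (adjusted p = 0.566). Nanog, Nr0b1 and Klf2 were chosen after their values were seen.

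The opposite order was seen for Myc, at 91.0 and 98.2 CPM in clone 4 and 12.5 and 18.9 CPM in clone 8 at 4h, from 1.62 to 3.15 CPM at 0h (changes 5.86 and 2.46, adjusted p of the difference = 1.64e-06). Lgr5, which passed the filter on low counts only through rev libraries and 4h libraries of clone 4, is given as a description. At 4h it had 9.77 and 11.9 CPM in clone 4 and 0.228 and 0.754 CPM in clone 8, the latter from 1 and 2 counts (changes 4.31 and 0.02). In these libraries Tcf7l2 and the share of Tcf7 were higher in clone 4 and Tcf7l1 in clone 8, and a relation between these genes was not tested. Clone 4 has 1 library at 0h, but from 2h to 4h the clone differences of Nanog (adjusted p = 3e-05), Esrrb (0.0497) and Myc (0.000233) were called as well, and that of Nr0b1 was not (0.239).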
